A study of Mus musculus with 4 samples.

Results

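Maturation of the control mouse heart was described from embryonic day 15.5 (E15.5) to postnatal day 2.5 (P2.5) in 2 of the 4 libraries of a series on the microRNA miR-1. The series sets a double knockout (dKO) of miR-1-1 and its paralog miR-1-2 against littermate controls (dHET, read here as double heterozygotes). There was 1 library for each combination of stage and genotype. The members were chosen by label alone, as the dHET library of each stage. All 4 libraries were made from poly-A selected RNA of whole hearts of Sv129 mice, and the labels do not state how many hearts entered a library. The control is labelled dHET at both stages, and the deposited P2.5 table heads its control column as heterozygous. The E15.5 table, however, heads its control column as wild type. By the sample labels the control hearts are not wild type. The 2 dKO libraries lack both miR-1 genes by label and serve here only to set the same stage difference beside that of the controls. The E15.5 libraries were read from both ends and the P2.5 libraries from a single end, each with reads of 100 bases, and each stage was normalised in a table of its own. Stage, read layout and table therefore cannot be told apart, and no value below has a replicate error or a test.

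Between the last week of gestation and the first days after birth the rodent heart changes its fuel, its contractile isoforms and its growth mode. Fetal heart muscle works at low oxygen tension, takes up glucose and lactate, and grows by cell division. After birth it turns to fatty acids and mitochondrial respiration, its muscle cells leave the cell cycle, and isoforms of the adult ventricle replace isoforms that atria, embryonic muscle or smooth muscle also use.

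Levels are given as FPKM, the fragments per kilobase of transcript and per 1000000 fragments that the authors deposited. The change of a gene is log2((P2.5 FPKM + 1)/(E15.5 FPKM + 1)), centred on its median over the 7353 genes that reached an FPKM of 5 in both control libraries. This scale understates changes of low genes. A gene was called higher or lower at P2.5 when its centred change reached 2-fold, that is 1 on the log2 scale, among the 10486 genes with a mean FPKM of at least 2 over all 4 libraries (the counted genes).

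Scaling totals recovered from the steps of the low FPKM values, which can differ from the mapped reads, came to 44600000 fragments for the P2.5 control and 86500000 for the E15.5 control. At an FPKM of 2, a transcript of 2000 bases then rests on about 178 and 346 fragments. Heart muscle markers were at a summed FPKM of 14847 at E15.5 and 26047 at P2.5 in the controls, with 13 of 15 listed markers counted. Liver, lung and airway, thymus, and autonomic nerve markers had no counted member, with summed levels of at most 10.4 FPKM in any library. Both control libraries had a male pattern, with Xist at 0.0550 and 0.101 FPKM and the Y-linked Ddx3y at 15.3 and 11.7 at E15.5 and P2.5. The E15.5 dKO library had a male pattern too, and the P2.5 dKO library a female one, with Xist at 50.7 and Ddx3y at 0. The stage difference of the controls thus lies within one sex pattern and that of the dKO pair does not.

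Of the 10486 counted genes, 527 were at least 2-fold higher at P2.5 (5.03%) and 305 at least 2-fold lower (2.91%), and 100 and 37 reached 4-fold. The dKO pair gave 524 higher (5.0%) and 294 lower (2.8%). Of the genes higher in the control pair, 386 were also higher in the dKO pair, which is 73.2% of the control calls and 73.7% of the dKO calls. For the lower genes the shared number was 194, or 63.6% and 66.0%. The 2 pairs share no library, but they share tables and read layouts, so the overlap is not a replication. Differences between genotypes within a stage were fewer: at P2.5, 40 genes were higher (0.381%) and 29 lower (0.277%) in dKO, against 10 (0.0954%) and 16 (0.153%) in the E15.5 libraries. The median absolute change was 0.298 between the control stages, 0.166 between genotypes at P2.5 and 0.0926 between genotypes at E15.5. The balance of higher and lower calls depends on the scaling. Rescaling each library to the same FPKM sum without centring shifted the median over the counted genes by -0.238 and gave 399 higher and 805 lower, so that 33.1% of the calls were higher in place of 63.3%. Each change is accordingly relative to the bulk of genes.

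**Figure D1:**
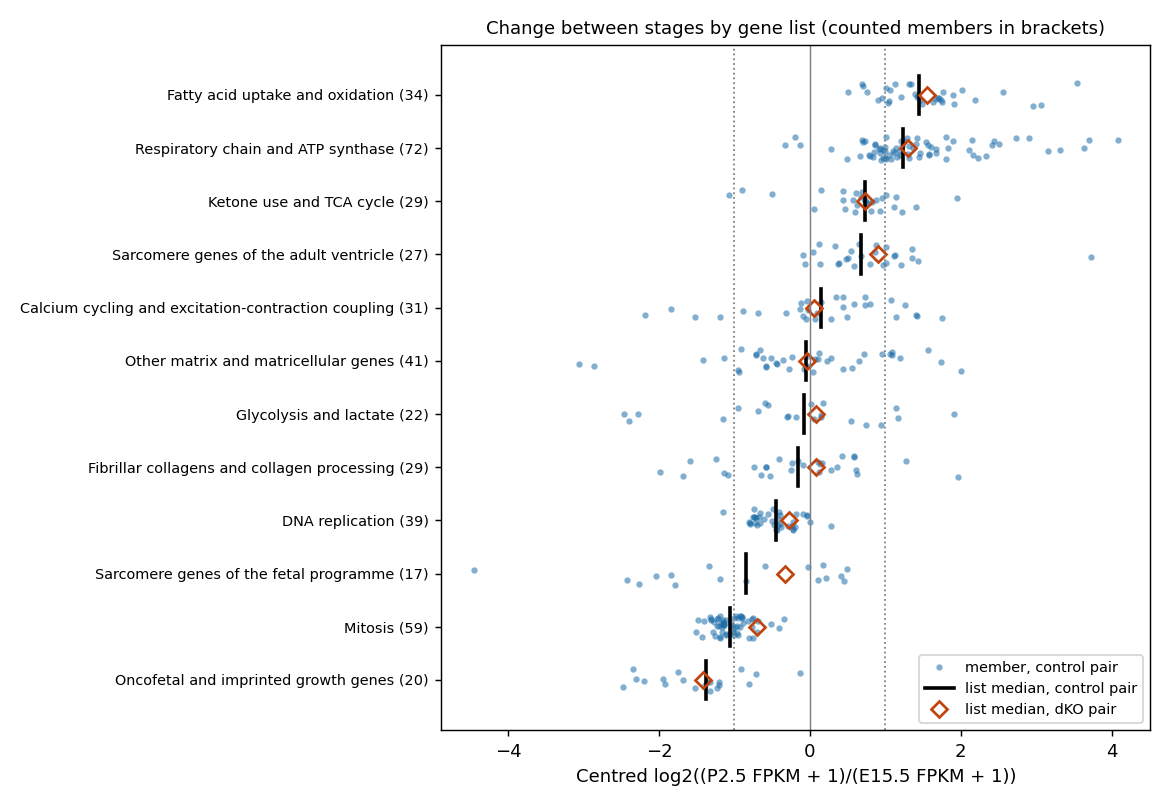
Centred log2 change between stages (x axis, P2.5 over E15.5) of each counted member of 12 gene lists in the control pair (blue points, jittered vertically), with the list median of the control pair (black bar) and of the dKO pair (open diamond). Dotted lines mark 2-fold. The fatty acid list lies wholly to the right of 0 and the mitosis list wholly to the left.

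Genes of cell division were lower at P2.5. All 59 members of the mitosis list lay below 0, from -0.35 to -1.51, with a median of -1.06, and 36 of them were at least 2-fold lower against a background of 2.91%. In the dKO pair the median was -0.70 and only 7 members passed 2-fold. Cyclin B1 (Ccnb1; chromosome 13, 101548694 to 101556441, mm9), which activates the kinase that starts mitosis, went from 15.8 FPKM at E15.5 to 4.70 at P2.5 in the controls and from 14.1 to 4.12 in the dKO libraries. Ect2, a guanine nucleotide exchange factor needed for the cleavage furrow, was at 20.4 and 6.39 FPKM in the controls and at 14.9 and 7.09 without miR-1. For both genes each E15.5 library lay above each P2.5 library. Topoisomerase Top2a, which untangles sister chromosomes, was at 70.8 and 26.7 FPKM, a change of -1.33 (-0.99 in the dKO pair). The proliferation antigen Mki67 went from 46.6 to 19.2 FPKM (-1.20, and -1.01 in dKO). The kinetochore motor Cenpe changed by -1.43 in the controls and by -0.62 in the dKO pair, where its P2.5 level was 5.85 FPKM against 3.39 in the control. All of these genes were still measured at P2.5, from 3.39 to 26.7 FPKM.

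The count of mitosis genes past 2-fold depended on the libraries. With the E15.5 dKO library in place of the E15.5 control it was 15, and with the P2.5 dKO library in place of the P2.5 control it was 19, and the medians were -0.85 and -0.90 in place of -1.06. With a pseudocount of 5 in place of 1, 9 members passed. In the dKO pair itself 58 of the 59 members lay below 0, so the direction was shared and the sizes lay near the 2-fold limit.

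Of 39 counted DNA replication genes 38 lay below 0, with a median of -0.45, against 52.9% of all counted genes below 0. At least 2-fold lower was 1 member, a share near the background of 2.91%, namely the replication initiation factor Mcm10 (6.59 to 2.32 FPKM, -1.15, and -0.55 in dKO). The helicase subunit Mcm4 went from 25.8 to 13.9 FPKM and the maintenance methyltransferase Dnmt1 from 37.7 to 20.6. The sliding clamp Pcna, at 20.1 and 23.8 FPKM, was the member above 0. Cyclins D1 and D2, which carry growth signals into G1, differed little: Ccnd1 was at 26.4 and 24.0 FPKM and Ccnd2 at 47.6 and 35.3. Among 20 counted inhibitors and p53 response genes, 2 were lower (background 2.91%) and 1 higher (background 5.03%). Cdkn1c, an imprinted inhibitor of cyclin-dependent kinases, was at 79.0 and 19.1 FPKM (-1.95), Gadd45b at 12.4 and 4.85, and the antiproliferative gene Btg2 at 9.40 and 26.6 (1.45). Meis1, a homeobox factor known to limit division of postnatal heart muscle cells, was at 15.3 and 10.7 FPKM, a change of -0.44 that did not reach 2-fold.

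Many genes of late cell cycle phases carry the cell cycle homology word TTTGAA near their start site, and the promoters of the mitosis list were read for it because the list moved together. The word was searched on both strands (as TTTGAA or TTCAAA) in the 300 bases from 250 before to 50 after each RefSeq start site of the build GRCm38.p6. It was present in 35 of the 50 mitosis genes that matched the promoter table (70%), and in 32 of them (64%) within 50 bases of the start site. The word was held by 20.2% of all 27025 tabulated genes and, within 50 bases of the start site, by 5.72%. Among the 7544 matched counted genes these shares were 13.7% and 3.66%, and among 33 matched DNA replication genes 6 held it (18.2%). The word CCAAT (or ATTGG), which can share at most 1 base with the other word, was in 34 of the 50 mitosis promoters (68%) and in 41.1% of all promoters. A match is a description of the sequence and not a site of binding. The 5 stretches below were chosen after the values were seen, to show where the word lies in genes of different mitotic roles. They are given 5′ to 3′ on the strand of the gene, with the word in capitals, for Ect2 (chr3:27153809-27153864, minus strand), Top2a (chr11:99024182-99024237, minus strand, where the word reads TTCAAA), the mitotic kinase Plk1 (chr7:122159440-122159484, plus strand), cyclin B2 (Ccnb2, chr9:70421520-70421575, minus strand) and the anaphase activator Cdc20 (chr4:118437331-118437386, minus strand).
Ect2: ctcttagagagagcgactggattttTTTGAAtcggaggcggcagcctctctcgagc
Top2a: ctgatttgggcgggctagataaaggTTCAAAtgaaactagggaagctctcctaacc
Plk1: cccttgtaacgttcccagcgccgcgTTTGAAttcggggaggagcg
Ccnb2: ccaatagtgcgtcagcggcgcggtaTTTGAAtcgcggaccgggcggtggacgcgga
Cdc20: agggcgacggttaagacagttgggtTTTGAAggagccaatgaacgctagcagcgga
The word begins 23 bases before the start site in Top2a and 18 before it in Cdc20, and at the 16th, 31st and 5th transcribed base in Ect2, Plk1 and Ccnb2. These genes were at 22.1 and 9.01 FPKM (Plk1), 33.1 and 16.5 (Ccnb2), and 31.9 and 15.2 (Cdc20) in the E15.5 and P2.5 controls. Ccnb1, which had the largest change of the list, is not among the 5 genes shown, and whether its promoter holds the word is not reported here.

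Growth genes of the fetus were the list with the lowest median. Of 28 oncofetal and imprinted genes 20 were counted, all below 0 in both pairs, with a median of -1.38 (dKO -1.42), and 16 were at least 2-fold lower in each pair against backgrounds of 2.91% and 2.8%, 15 of them in both. The other 8 were too low to be counted. Insulin-like growth factor 2 (Igf2; chromosome 7, 149836673 to 149856261), the main fetal growth factor of this family, went from 1345 FPKM at E15.5 to 405 at P2.5 in the controls and from 1494 to 370.5 in the dKO libraries. Its imprinted neighbour H19, a long noncoding RNA read from the opposite parental allele (chromosome 7, 149761437 to 149764051), went from 1502 to 286 FPKM and from 1469 to 389. In both genes the E15.5 libraries were close to each other and lay several fold above the P2.5 libraries.

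The chromatin factor Hmga2, a marker of undifferentiated growing tissue, was at 6.80 FPKM at E15.5 and 0.365 at P2.5, and at 5.52 and 0.499 without miR-1. The RNA-binding protein gene Igf2bp1 went from 8.04 to 0.910 FPKM (-2.20, dKO -2.01) and its relative Igf2bp3 from 17.1 to 5.84 (-1.36, dKO -1.02). Lin28b, which blocks maturation of let-7 microRNAs, fell under the count limit with 0.884 and 0.378 FPKM. The imprinted genes Zim1, Mest, Peg3, Dlk1 and Grb10 changed by -2.31, -1.92, -1.75, -1.52 and -1.20, whereas Gnas changed by -0.13. The proteoglycan Gpc3, a brake on fetal growth whose gene lies on the X chromosome, went from 211 to 31.3 FPKM (-2.67, dKO -2.45).

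In the wider insulin-like growth factor axis 5 of 16 counted genes were lower (background 2.91%) and 3 higher (background 5.03%). The binding protein gene Igfbp2 was at 8.05 FPKM at E15.5 and 0.0860 at P2.5 (5.47 and 0.261 in dKO), where the P2.5 control value rests on about 5 fragments. The insulin receptor substrate Irs2 was higher, at 4.49 and 23 FPKM (2.17, dKO 1.24), as was the binding protein Igfbp7, at 27.1 and 90.9 (1.75, dKO 1.69).

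**Figure D2:**
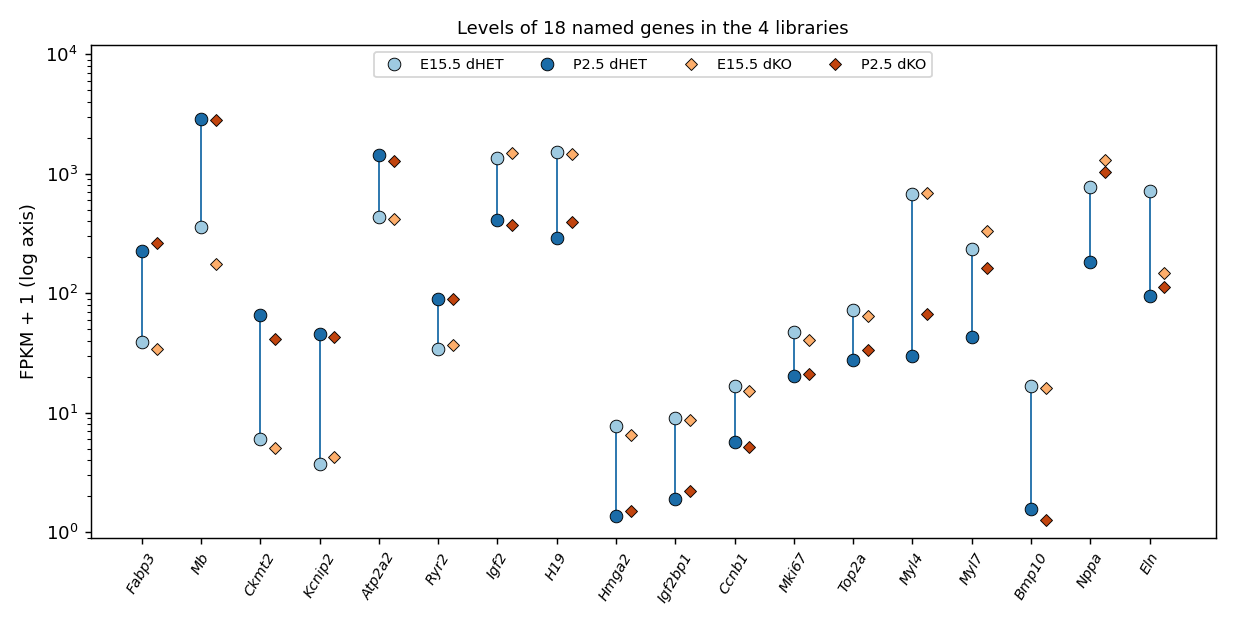
Levels of 18 named genes (x axis) as FPKM + 1 on a log axis in the E15.5 and P2.5 dHET libraries (light and dark blue circles, joined by a line) and in the E15.5 and P2.5 dKO libraries (light and dark orange diamonds). The genes of fuel use, calcium cycling and the Kcnip2 channel subunit are higher at P2.5, and the growth, mitosis and atrial genes are lower. For Eln the E15.5 control stands alone at 710 FPKM, with the other libraries between 94.2 and 147.

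Genes of fatty acid use were higher at P2.5 throughout. All 34 members of the list were counted and all lay above 0 in both pairs, with a control median of 1.44 (dKO 1.55). At least 2-fold higher were 28 members against a background of 5.03%, and 27 in the dKO pair against 5.0%, with 26 in common. The heart fatty acid binding protein Fabp3 (chromosome 4, 129986022 to 129992707), which carries fatty acids through the cytosol, went from 38.4 FPKM at E15.5 to 224 at P2.5 in the controls and from 33.0 to 261 without miR-1. The fatty acid translocase Cd36 was at 56.1 and 178 FPKM in the controls and 56.1 and 159 in dKO. In both genes each P2.5 library was well above each E15.5 library, and the genotypes of a stage lay close together.

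The lipid droplet protein gene Plin5 was low at E15.5, at 0.290 FPKM, and reached 13.6 at P2.5 (0.356 and 13.2 in dKO). The mitochondrial carrier Ucp3 went from 0.0756 to 7.12 FPKM. Along the oxidation spiral the very long chain dehydrogenase Acadvl changed most, from 55.4 to 248 FPKM (2.19, dKO 2.39). The medium chain enzyme Acadm changed by 1.43, the trifunctional protein subunits Hadha and Hadhb by 1.46 and 1.32, and the short chain hydratase Echs1 by 0.50, the smallest change of the list. Of the carnitine system that brings fatty acids into mitochondria, Cpt1b was at 87.6 and 166 FPKM (0.96) and Cpt1a at 23.2 and 38.9 (0.76), while Cpt2 changed by 1.13 and the carrier Slc25a20 by 1.42 (dKO 1.59). Pdk4, the kinase that closes pyruvate dehydrogenase, was at 13.4 and 38.1 FPKM, and the lipase inhibitor Angptl4 at 2.57 and 13.1.

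Cd36 and Fabp4, members of the fatty acid list, are also endothelial markers. Of 24 endothelial markers, 8 were higher (background 5.03%) and 2 lower (background 2.91%), with a median of 0.39. Their summed FPKM went from 691 to 1257 in the controls and from 733 to 1482 in dKO. Without Cd36 and Fabp4 the sum of the other 22 markers went from 493 to 650.1 in the controls and from 537 to 719 in dKO. In bulk hearts fewer cells of a type and less RNA per cell cannot be told apart, and the part of a changed cell composition in these values was not tested. Of 11 brown adipose markers 3 were counted and all 3 were higher: Fabp4, Cidea (2.04 to 14.5 FPKM) and Cox8b. The defining brown fat gene Ucp1 was at 0 in the P2.5 control and Adipoq was at 0 there too.

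The respiratory chain and ATP synthase were the largest group that was higher. Of 75 listed genes 72 were counted, with a median of 1.23 (dKO 1.30). At least 2-fold higher were 49 (background 5.03%) and none was lower (background 2.91%). The dKO pair had 53 higher (background 5.0%) and none lower (background 2.8%). NADH dehydrogenase (complex I) had 34 counted subunits with a median of 1.26 and 25 higher. Complex III had 9 with a median of 1.10 and 6 higher, cytochrome c oxidase 13 with a median of 1.67 and 10 higher, and ATP synthase 15 with a median of 1.00 and 8 higher. The range of complex I was the narrowest, from 0.69 to 2.41.

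Among single subunits, the ATP synthase stalk gene Atp5h (chromosome 11, 115277011 to 115281233) went from 7.64 FPKM to 141 in the controls and from 7.29 to 169 in dKO, and the oxidase subunit Cox5b from 4.39 to 66.8 and from 4.41 to 56.1. Uqcr11 of complex III went from 17.7 to 224 FPKM. Usmg5, a small ATP synthase associated protein outside the list, had the largest positive change of all named genes, 4.87, from 0.780 FPKM, or about 23 fragments, to 49.6. Some abundant subunits lay below the list median. The catalytic subunit Atp5b was at 1152 and 1933 FPKM (0.79) and the complex I core subunit Ndufs1 at 109 and 175 (0.73). The 3 counted members of the respiratory list below 0 were Cox8a (-0.32), Atp5l (-0.20) and cytochrome c itself, Cycs (-0.13), named after their values were seen.

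Transcript length moved with the change over all genes, and respiratory subunits have short transcripts. Across the 10281 counted genes with an annotated coding transcript, Spearman's rho between change and length was -0.318, a description across genes that share both libraries. The median change was 1.17 for the 40 genes under 500 bases and 0.44 from 500 to 1000 bases. It was 0.15 from 1000 to 2000, -0.028 from 2000 to 4000, -0.16 from 4000 to 8000 and -0.22 above that. Of the 72 respiratory genes, 43 were under 1000 bases. Within each class of at least 6 respiratory genes their median lay above that of the other genes, at 2.41 against 0.87 under 500 bases, 1.29 against 0.40 from 500 to 1000, 1.04 against 0.14 from 1000 to 2000, and 0.90 against -0.028 from 2000 to 4000, where 6 members fell. With all genes under 1000 bases left out, 17 of 29 members were higher with a median of 1.04, and after a linear adjustment for length and GC content 32 were higher with a median of 0.90. Read layout differs with stage, so their parts in the length relation cannot be told apart. A length relation was also present where neither differed. Between the P2.5 libraries, Spearman's rho between the change of dKO over dHET and length was -0.24. The source of the length relation was not tested. The fatty acid list had 4 members under 1000 bases and kept its median of 1.44 over the other 30. The mitosis list had 2.

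**Figure D3:**
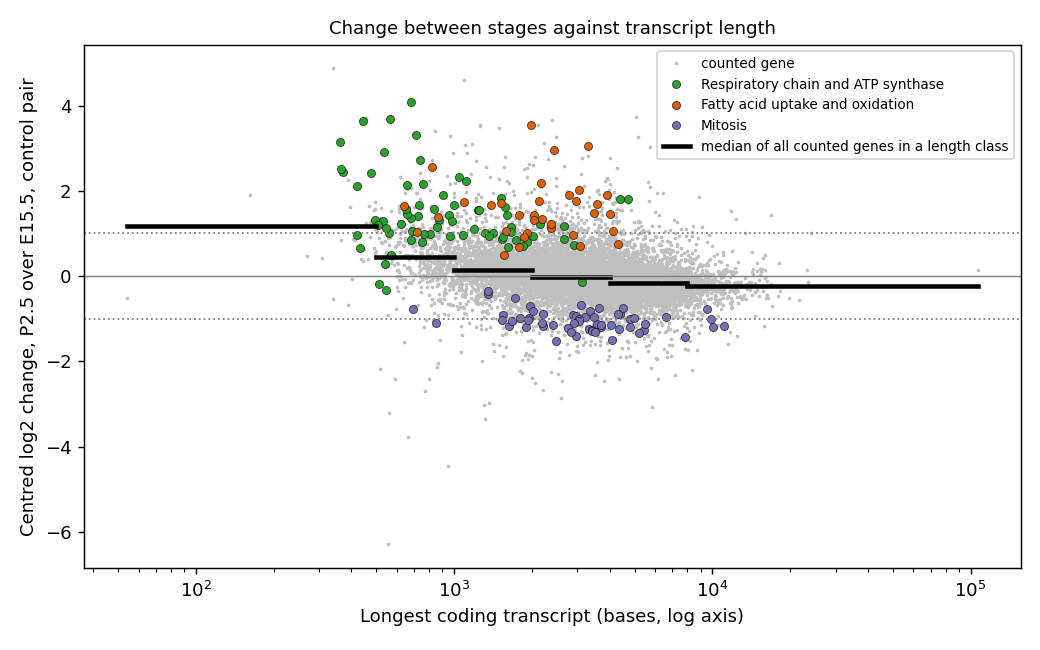
Centred log2 change in the control pair (y axis) against the length of the longest coding transcript in bases (x axis, log axis) for each counted gene (grey) and for the members of 3 lists (coloured). Black bars are medians of all counted genes in the length classes under 500, 500 to 1000, 1000 to 2000, 2000 to 4000, 4000 to 8000 and over 8000 bases, which run from 1.17 down to -0.22, and dotted lines mark 2-fold.

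Of 29 counted genes of the TCA cycle and ketone use 26 lay above 0, with a median of 0.73 in both pairs. At least 2-fold higher were 6 members against a background of 5.03%, and 2 after rescaling to the same sum. The isocitrate dehydrogenase subunit Idh3b was at 91.6 and 207 FPKM (1.21), and citrate synthase Cs at 184 and 286 (0.68). The mitochondrial pyruvate carrier genes Brp44l and Brp44, now called Mpc1 and Mpc2, changed by 1.95 and 1.4. The 3 members below 0 were the ketone enzymes Bdh1 (2.06 to 0.410 FPKM) and Oxct1 (85.3 to 57.9) and pyruvate carboxylase Pcx (5.03 to 2.15), of which Bdh1 passed 2-fold. In the dKO pair Bdh1 was at 3.49 and 2.19, and did not pass.

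Glycolysis did not move as a group, with a median of -0.084 (dKO 0.086) over 22 counted genes, but its members split. There were 3 higher (background 5.03%) and 4 lower (background 2.91%). The fetal glucose transporter Slc2a1 (chromosome 4, 118781350 to 118809934) went from 57.5 FPKM to 9.30 in the controls and from 68.1 to 13.0 in dKO. The lactate exporter Slc16a3 went from 44.1 to 7.27 FPKM and from 53.6 to 23.5, so that its P2.5 levels differed by genotype while the E15.5 levels were close. Pgam1 was lower, from 26.5 to 4.48 FPKM, although its E15.5 libraries also differed, with 56.0 in dKO. The insulin-responsive transporter Slc2a4 was higher, from 17.3 to 38.9 FPKM (1.16, dKO 0.82), and so were the muscle enolase Eno3 (152 to 556) and the heart lactate dehydrogenase Ldhb (121 to 260.3). Hexokinases Hk1 and Hk2 stayed near their E15.5 levels, at 62.9 and 14.1 FPKM, with changes of -0.29 and 0.0096.

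Of 19 counted glycogen and pentose phosphate genes 1 was higher and 1 lower, near the backgrounds of 5.03% and 2.91%. These were muscle glycogen phosphorylase Pygm (77.6 to 162 FPKM) and the glycogen primer Gyg (307 to 127). Hypoxia response genes had a median of -0.16, with 3 of 20 lower (background 2.91%) and 1 higher, a share near the background of 5.03%. Besides Slc2a1, the lower genes were the mitophagy receptor Bnip3 (27.5 to 12.4 FPKM) and the oxidoreductase Ero1l (11.4 to 4.54). The oxygen-regulated factor Epas1 was higher (19.2 to 38.9), while Vegfa differed by 0.086 and Hif1a by -0.51.

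Oxygen storage and energy transfer genes changed by more than most. Myoglobin (Mb; chromosome 15, 76845917 to 76887538) went from 355 FPKM at E15.5 to 2888 at P2.5 in the controls and from 175 to 2791 in the dKO libraries. The P2.5 levels were alike and the E15.5 dKO level was the lowest. Mitochondrial creatine kinase Ckmt2 went from 5.03 to 64.2 FPKM (3.48, dKO 2.98). Cytosolic Ckm (0.97) stayed under 2-fold, and the adenine nucleotide carrier Slc25a4 was at 688 and 1892 FPKM (1.5). Of the 15 counted genes of the creatine and adenylate shuttle, Ckmt2 and Slc25a4 were those past 2-fold, around a median of 0.71. Among 28 antioxidant genes 7 were higher and 1 lower, with superoxide dismutase Sod1 at 25.6 and 98.4 FPKM and the extracellular peroxidase Gpx3 at 249 and 75.6. Of the 28 antioxidant genes 7 had transcripts under 1000 bases, Sod1 among them. The 21 longer ones had 3 higher and 1 lower. The background for these lists was 5.03% higher and 2.91% lower.

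Contractile genes of the adult ventricle and of the fetal programme differed in direction in the control pair, with part of each list past 2-fold. Of 27 counted adult sarcomere genes 25 lay above 0, with a median of 0.68 (dKO 0.91), and 9 were at least 2-fold higher against 5.03%. Among the 21 adult members of at least 1000 bases 4 were higher, with a median of 0.59. Rescaling to the same sum also left 4 of the 27 higher. Of 17 counted genes of the fetal programme (22 listed) 8 were at least 2-fold lower against 2.91%, with a median of -0.85 (dKO -0.33, with 6 lower), and 6 lay above 0. With the P2.5 dKO library in place of the P2.5 control 4 were lower and that median became 0.11, and among the 12 counted members of at least 1000 bases 4 were lower with a median of -0.31. Myomesin 2 (Myom2; chromosome 8, 15057653 to 15133419), a cross-linker of the M-band in fast and adult muscle, went from 9.34 FPKM to 132 in the controls and from 6.24 to 100.1 in dKO. Its change of 3.72 was the largest of the adult list, in which the next was 1.43 for cardiac troponin I. The ventricular light chains Myl2 and Myl3 were at 3375 and 1630.5 FPKM at E15.5 and 7059 and 3457 at P2.5. Titin (Ttn), the molecular spring of the sarcomere, changed by 0.13 and cardiac actin Actc1 by 0.47.

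Cardiac troponin I, Tnni3 (chromosome 7, 4469910 to 4474045), the inhibitory subunit that replaces the slow skeletal form after birth, was at 484 FPKM at E15.5 and 1263 at P2.5, and at 385 and 1577 without miR-1. The slow skeletal form Tnni1 (chromosome 1, 137695998 to 137707566) was at 732 and 802 FPKM, and at 702 and 811 in dKO. Tnni1 thus held its level while Tnni3 overtook it. The share of Tnni3 in the sum of the pair went from 39.8% to 61.2% in the controls and from 35.5% to 66.0% in dKO.

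Shares within a library do not depend on its scaling, and 20 pairs of paralogs, chosen after values had been seen, were read this way. They do not remove the relation between change and transcript length where paralogs differ in length. Tnni3 has 912 bases and Tnni1 1150, and Cox8b, read below, has 362. The part of transcript length in the shares was not tested. The alpha and beta myosin heavy chains had rows outside the status rule, since the authors' flag for too much data marked Myh7 in the E15.5 table and Myh6 in the P2.5 table, and those rows list 0 for the dKO library. In the control libraries Myh6, the adult rodent form, was at 320 FPKM at E15.5 and 2270 at P2.5, and Myh7, the fetal form, at 1335 and 595. The share of Myh6 was 19.4% and 79.2%. The 2 genes are near-identical neighbours, and how their shared reads were assigned is not given in the sources used here.

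Among metabolic pairs the share of Slc2a4 against Slc2a1 went from 23.2% to 80.7% (dKO 21.1% to 72.2%) and that of Ldhb against Ldha from 30.1% to 48.0%. Muscle forms of cytochrome c oxidase gained on the forms of other tissues. Cox7a1 went from 22.7% to 49.6% of the Cox7a1 and Cox7a2 sum, Cox8b from 8.05% to 50% of the Cox8b and Cox8a sum, and Cox6a2 from 31.2% to 58.9% of the Cox6a2 and Cox6a1 sum. For Cox6a2 the dKO libraries gave 26.1% and 29.4%, since Cox6a2 reached 254 FPKM there against 415 in the control and Cox6a1 was at 608 against 290.1. Pairs that barely moved were Cpt1b with Cpt1a (79.0% to 81.0%), Hk2 with Hk1 (15.4% to 18.3%) and Actc1 with Acta1 (98.4% to 98.8%).

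**Figure D4:**
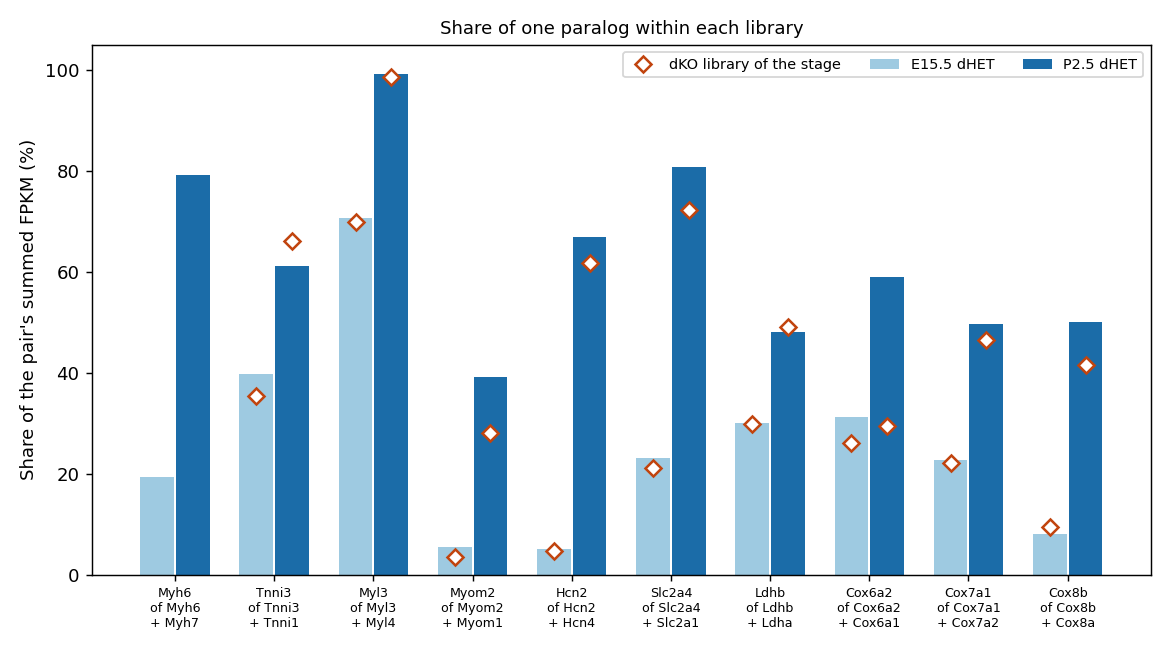
Share of one paralog in the summed FPKM of its pair (y axis, percent) within the E15.5 (light blue) and P2.5 (dark blue) dHET libraries, for 10 pairs, with the dKO library of the same stage as an open diamond. The dKO values of the myosin heavy chains are missing because 1 gene of the pair was listed at 0. The pairs, and the gene shown for each, were chosen after values had been seen, so that each bar at P2.5 is above its E15.5 bar by choice. The pairs named in the text as barely moved are not drawn.

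Genes of the atria and of the fetal ventricle had the lowest changes among the muscle genes. The atrial essential light chain Myl4 (chromosome 11, 104411977 to 104448533), which the fetal ventricle also makes, was at 679.9 FPKM at E15.5 and 29.0 at P2.5 in the controls, and at 692 and 66.0 in dKO. The regulatory light chain Myl7 went from 234 to 41.7 FPKM, and from 333 to 161 without miR-1. Bmp10, a growth factor of trabecular and atrial muscle, went from 15.6 FPKM to 0.562, or about 33 fragments, and from 15.1 to 0.274 in dKO. For Myl4 and Bmp10 both P2.5 libraries were far below both E15.5 libraries, while Myl7 at P2.5 in dKO lay between the control values.

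Atrial natriuretic peptide, Nppa (chromosome 4, 147374855 to 147376176), a hormone of the fetal ventricle and of the atria, was at 775 FPKM at E15.5 and 182 at P2.5 in the controls, a change of -2.04. In the dKO libraries it was at 1297 and 1021, a change of -0.39, and the difference between the pairs was not tested. The related peptide Nppb was at 54.1 and 60.9 FPKM. Sarcolipin, Sln, an atrial inhibitor of the calcium pump, was at 8.76 and 1.08 FPKM. Of 14 atrial markers 11 were counted, 9 below 0 and 6 at least 2-fold lower (background 2.91%). The summed FPKM of the list was 1785 at E15.5 and 315 at P2.5 in the controls, against 2420 and 1315 in dKO. The atrial markers Kcnj5 (0.85), Stard10 (0.28) and Kcnj3 (-0.027) did not follow. The share of atrial tissue in each sample was not tested.

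Smooth muscle genes used by the embryonic heart split. Calponin Cnn1 went from 82.7 to 15.9 FPKM (-2.26, dKO -1.07) and Tagln from 46.3 to 17.1 (-1.34, dKO -1.23), while smooth muscle actin Acta2 was at 692 and 658. The 14 mural and smooth muscle markers had 2 higher (background 5.03%) and 2 lower (background 2.91%). Slow skeletal troponin T, Tnnt1, changed by -1.79 and the skeletal calsequestrin Casq1 by -1.85, whereas skeletal actin Acta1 was at 74.3 and 77.8 FPKM.

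Calcium cycling genes did not move as a list, with a median of 0.14 that turned to -0.076 when the libraries were rescaled to the same sum. Of the 31 genes 6 were higher (background 5.03%) and 4 lower (background 2.91%). The genes that move calcium through the sarcoplasmic reticulum were among the 6. The calcium pump Atp2a2 (chromosome 5, 122903522 to 122952234) was at 432 FPKM at E15.5 and 1417 at P2.5 in the controls and at 413 and 1284 in dKO. Its inhibitor phospholamban, Pln, went from 490.2 to 1266 FPKM, and from 444 to 731 in dKO, where the P2.5 level was below that of the control. The release channel Ryr2 went from 33.4 to 88.6 FPKM (1.42, dKO 1.24). Lower were Sln, Casq1, the T-type channel Cacna1h (9.43 to 2.51 FPKM) and the plasma membrane pump Atp2b4 (18.3 to 7.18). The sodium-calcium exchanger Slc8a1, which dominates calcium removal in immature heart muscle, was at 93.0 and 55.6 FPKM (-0.69) and did not reach 2-fold.

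Of 31 listed ion channel genes 23 were counted and 8 were too low. Of the 23, 10 were higher against a background of 5.03% and none was lower against 2.91%, with a median of 0.89 (dKO 0.66, with 6 higher). Kcnip2, the subunit that makes the transient outward current fast, went from 2.71 FPKM to 44.6 in the controls and from 3.26 to 41.6 in dKO. The potassium channel subunit Kcne1 changed by 1.62 and the sulfonylurea receptor Abcc8 by 1.27. The pacemaker channel genes moved apart. Hcn2 went from 0.228 to 4.17 FPKM and Hcn4 from 4.32 to 2.06, which took the share of Hcn2 in their sum from 5.01% to 66.9% (dKO 4.77% to 61.7%). The inward rectifier Kcnj2 stayed at 7.93 and 7.84 FPKM. The conduction and atrial connexin Gja5 went from 40.1 to 11.9 FPKM (-1.63, dKO -1.58), while the main ventricular connexin Gja1 went from 203 to 363 (0.88).

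Of 26 counted cardiac transcription factors none was at least 2-fold higher (background 5.03%) and 2 were lower (background 2.91%), among them Hand1 (6.48 to 1.06 FPKM), a factor of the embryonic left ventricle. Hopx (0.94) and the ventricular factor Irx4 (0.70) were the highest. Of 21 counted nuclear receptors and coactivators 1 was higher, a share near the background, namely the thyroid and glucocorticoid responsive factor Klf9 (1.77 to 7.99 FPKM, 1.75, dKO 1.20). The fatty acid receptor Ppara was at 4.62 and 6.99 FPKM (0.55), the estrogen-related receptor Esrra at 20.7 and 34.1 (0.74) and their coactivator Ppargc1a at 15.7 and 12.6 (-0.26). The word TCAAGGTCA, a binding sequence of the estrogen-related receptors, was found on either strand in 1 of 62 matched respiratory promoters, Atp5g3, in none of 26 matched fatty acid promoters and in 0.466% of all promoters in the same window of 300 bases. The splicing regulator Rbfox1 was higher in the control pair, at 1.23 and 6.01 FPKM, against 1.10 and 1.80 in dKO. It was the single member past 2-fold of 19 in its list, a share near the background of 5.03%.

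Of 19 counted immediate early and stress genes 8 were higher against a background of 5.03% and none was lower, with a median of 0.86 (dKO 0.61, with 9 higher against 5.0%). Fos was at 0.879 FPKM at E15.5 and 20.4 at P2.5, and at 0.758 and 15.4 without miR-1. The orphan receptor Nr4a1 went from 7.79 to 80.9 FPKM, and the phosphatase Dusp1 from 10.4 to 42.6. These genes are transcribed within minutes of a stimulus and need no new protein for it. The nuclear RNA Neat1 was at 6.23 and 90.6 FPKM in the controls and 6.72 and 78.3 in dKO.

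Matrix genes moved in both directions. Of 29 counted collagen genes 6 were lower and 2 higher (dKO 3 and 2), and of 41 other matrix genes 4 were lower and 7 higher (dKO 2 and 4). The control backgrounds were 2.91% lower and 5.03% higher. The fibrillar collagens Col1a1 (254 to 221 FPKM) and Col3a1 (318 to 464) did not reach 2-fold. Higher were Col15a1 (25.3 to 60.8) and Col5a3 (0.485 to 4.59), the small proteoglycans Prelp (1.94 to 10.5) and Aspn (10.1 to 30.9), and the microfibril gene Mfap5 (5.09 to 18.6). The embryonic proteoglycan versican, Vcan, was lower in both pairs, from 51.3 to 18 FPKM and from 48.4 to 12.2, and so was the cartilage collagen Col2a1, from 3.20 to 0.0273 and from 8.99 to 0.0813. Col12a1 went from 6.35 to 1.37 FPKM.

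For 5 genes of the matrix and of Wnt signalling, chosen after their values were seen, the E15.5 control library stood apart. The stage difference of each was larger in the controls than in the dKO pair. Fbln5 and Sfrp2 were also at least 2-fold lower at P2.5 in the dKO pair. Elastin, Eln (chromosome 5, 135178466 to 135223124), was at 709.7 FPKM in the E15.5 control, 94.2 in the P2.5 control, and 147 and 112 in the E15.5 and P2.5 dKO libraries. Fibulin 5, Fbln5, which guides elastic fibre assembly, was at 52.1, 5.15, 11.1 and 4.22 in the same order. The cross-linking enzyme Lox was at 24.9, 6.86, 9.75 and 5.20, the Wnt antagonist Sost at 7.89, 0.510, 1.49 and 1.34, and the Wnt modulator Sfrp2 at 53.5, 9.07, 23.8 and 11.8. The E15.5 control was the highest library for all of these genes and lay more than 2-fold above the E15.5 dKO library for each of them. In the dKO pair the changes were -0.43 for Eln, -1.26 for Fbln5, -0.84 for Lox, -0.14 for Sost and -1.0 for Sfrp2, against -2.86, -3.07, -1.68, -2.51 and -2.39 in the controls. The microfibril genes Fbn2, Mfap4 and Mfap2 changed by -1.14, -0.94 and -0.72 in the controls and by -0.84, -0.78 and -0.91 in dKO, and Mfap5 by 1.73 and 1.23.

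In the cushion and valve list 15 of 18 counted members lay below 0, against 52.9% of all counted genes, and 5 were at least 2-fold lower (background 2.91%) and none was higher, with a median of -0.57 (dKO -0.66). Besides Bmp10 and Vcan, the ligand Tgfb2 went from 18.1 to 5.30 FPKM. In the Wnt, Notch and Hippo list 16 of 25 lay below 0, nearer the share of all genes. Of the 25, 5 were at least 2-fold lower (background 2.91%) and none was higher (background 5.03%). Among the lower genes, Sfrp1 was at 38.9 and 9.32 FPKM and Wnt5a at 8.70 and 2.06. The matrix gene Spon1 was among the 20 lowest of all, at 35.1 and 5.56 FPKM (-2.42, dKO -2.40).

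Marker genes of other cell types differed within their lists. The background for the control counts of these lists was 5.03% higher and 2.91% lower. The largest changes of the endothelial list were those of Ly6c1, from 1.06 to 20.2 FPKM, and of the tight junction gene Cldn5, from 12.8 to 50.5. Outside that list Car4, a carbonic anhydrase of the capillary surface, went from 0.142 FPKM to 12.0. The endocardial marker Npr3 (14.8 to 4.48) and the fenestral gene Plvap (24.1 to 9.90) were lower, and pan-endothelial Pecam1 (0.26) and Cdh5 (0.24) did not reach 2-fold. Of 14 fibroblast markers 5 were higher and 1 lower (dKO 3 and 0), with a median of 0.63 (dKO 0.27). Dermatopontin Dpt was at 17.9 and 81.7 FPKM in the controls. The summed FPKM of the list went from 759 to 1025 in the controls and from 724 to 899 in dKO. Of 20 macrophage and leukocyte markers 11 were counted and 1 was higher, Tyrobp (2.15 to 5.31), while complement C3 went from 0.342 to 11.5 FPKM. Of 20 interferon and antigen presentation genes 8 were counted and 3 were higher, namely Ifitm3 (8.51 to 38.0), Tap2 (1.13 to 4.81) and H2-D1 (13.0 to 28.9). The 1 counted neutrophil marker S100a9 went from 0.569 to 3.63 FPKM. Of 10 counted epicardial markers 1 was higher and 1 lower, Aldh1a2 (5.15 to 21.6) and Krt19 (8.42 to 2.56).

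Red cell genes showed the change from embryonic globins. Hbb-y, an embryonic beta-like globin, was at 14.3 and 9.88 FPKM in the E15.5 control and dKO libraries and at 0.0725 and 0.0647 at P2.5, and the embryonic alpha-like Hba-x was at 4.74 and 4.84 at E15.5 and at 0.0374 and 0 at P2.5. The adult alpha globin Hba-a2 was at 80.0 and 73.5 FPKM at E15.5 and listed at 0 in both P2.5 libraries. The adult globins are near-identical copies whose reads can be split or dropped, Hba-a1 was not analysed here, and beta globin was reported under a separate and a joint name, so a value of 0 says little of adult globin. The 2 beta globin entries changed in opposite directions. Hbb-b2 was at 35.5 and 20.8 FPKM in the E15.5 and P2.5 controls (-0.70, dKO -2.93). The joint entry of Hbb-b1 and Hbb-b2 was at 1.84 and 28.9 (3.44, dKO 5.45). The heme enzyme Alas2 was at 11.2 and 12.5 FPKM, a change of 0.19.

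Ribosomal protein genes scattered, with 12 of 41 counted members higher (background 5.03%) and 7 lower (background 2.91%). Rpl38 went from 0.357 FPKM, or about 14 fragments, to 16.1 and Rplp2 from 3.25 to 39.2, while Rpl3 went from 8.85 to 0.214 and Rpl28 from 7.23 to 0.226. Most of these genes have processed copies elsewhere in the genome that can share reads, and 25 of the 41 have transcripts under 1000 bases, of which the 16 longer ones had 1 higher and 3 lower. Mitochondrial ribosomal proteins, which have few such copies, had a median of 0.35, with 3 of 53 higher and none lower. The share higher was near the background of 5.03%, and none of the 38 members of at least 1000 bases was higher. Chaperones of the endoplasmic reticulum had none past 2-fold in either direction and a median of -0.35, with Hsp90b1 at 235 and 118 FPKM.

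The stage difference of the controls was set beside that of the dKO pair gene by gene. Across the counted genes the 2 sets of changes had a Pearson correlation of 0.888 and a Spearman correlation of 0.873, given as a description across genes. Of the genes at least 2-fold changed in the controls, 4 had the opposite sign in the dKO pair. These were Rps2, Rps18, Nupr1 and Gm3646, and of these only Rps18 passed 2-fold in opposite directions. Rps2 was at 0.590 and 36.5 FPKM in the E15.5 and P2.5 controls and at 1.09 and 0.562 in the dKO libraries. Rps18 was at 17.9 and 39.3 FPKM in the controls and at 17.3 and 0.115 in dKO. Hmgn2 was likewise high in the P2.5 control alone, at 18.3 FPKM against 0.719 at E15.5 and 1.47 in P2.5 dKO. Of the 20 highest named genes, 18 also passed 2-fold in the dKO pair, the others being Rps2 and Hmgn2. Of the 20 lowest, 18 passed as well, the others being Eln and Sost.

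**Figure D5:**
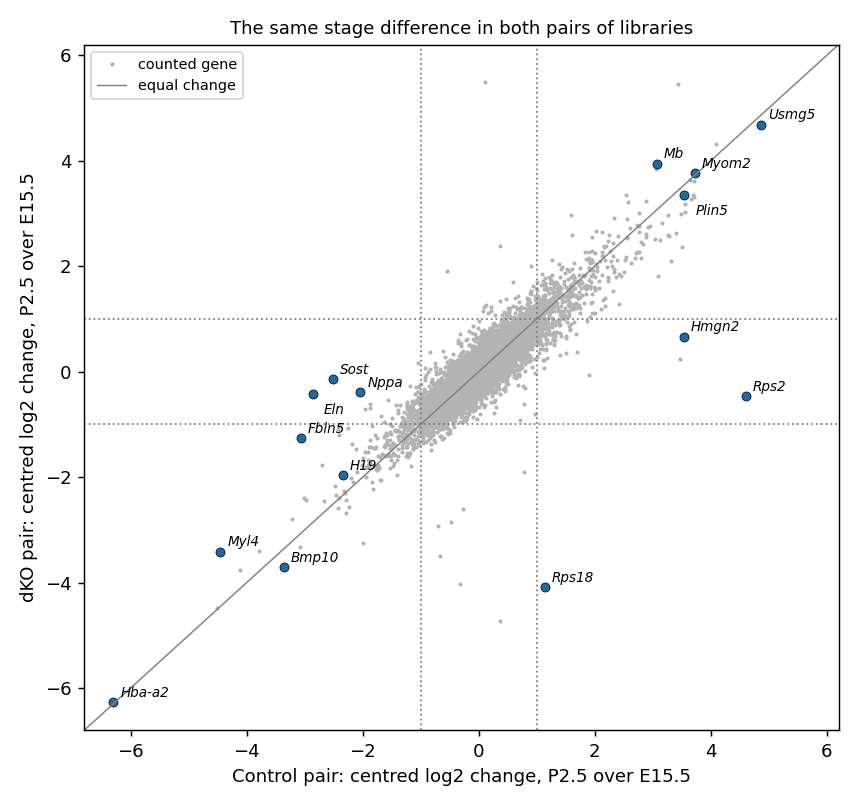
Centred log2 change between stages in the control pair (x axis) and in the dKO pair (y axis) for each counted gene (grey), with 15 named genes in blue. The solid line marks equal change and dotted lines mark 2-fold. Most genes lie along the line, while Rps2, Rps18, Hmgn2, Eln, Sost and Nppa lie off it.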

How the data were processed

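Poly-A RNA of whole mouse hearts was measured in 4 libraries, of which the 2 dHET libraries form the comparison. The authors deposited FPKM values in 1 table per stage. TopHat, Bowtie, Cufflinks and the build mm9 are named per the submitters' processing notes. The sources used here give no versions, scaling or rule for reads that match several places. From these FPKM values, 86 displaced rows per table were realigned on their position column. Of 22552 rows, 22516 were joined on gene name and position and 36 were not. Another 197 were left out because their status in either table was neither OK nor NOTEST, which leaves 22319. A pseudocount of 1 was added, and the ratio P2.5 over E15.5 was centred as described. With 1 library per group the control comparison has no test and no p-value was computed. A fit of stage over both genotypes, which leaves 1 residual degree of freedom and takes the stage difference as equal in both, was not run. The recovered scaling totals set the depth, and precision covers counting error only. The computation was tested on simulated data with 200 changed genes.

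The members and the 46 gene lists were chosen with earlier results of these data known. Genes were named by a rule: the 20 largest changes in each direction, leaving out predicted, small RNA and histone genes; the 5 members of a list that changed most in size, or fewer; and a short set of heart genes in every case. Some genes that the rule names are not reported here. Other genes named, the paralog pairs and the promoter examples were chosen after their values were seen. Transcript lengths are the longest coding transcripts of GENCODE release M1. Alternatives covered the pseudocount, the filter, the scaling, the status rule, an adjustment for length and GC content, and the fold. The exchange of a control library for its dKO counterpart and the restriction to long transcripts were added after seeing the data. Python 3.11.15 was used with numpy 2.4.6, pandas 2.3.3, scipy 1.17.1 and matplotlib 3.10.9.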

Additional observations from a re-analysis of the deposited data

Results flagged for a closer look

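Rps2, which encodes a protein of the small cytosolic ribosomal subunit, changed in different directions in the control and dKO pairs. Its centred log2 change from E15.5 to P2.5 was 4.60 in the controls and -0.465 in the dKO pair. The difference between the pairs was not tested. The high value comes from the P2.5 control library alone, at 36.5 FPKM, with 0.590 in the E15.5 control and 1.09 and 0.562 in the E15.5 and P2.5 dKO libraries. Processed copies of this gene elsewhere in the genome can share its reads, and their part in the value was not tested.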

How the results depend on the processing

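The fatty acid, respiratory, TCA, adult sarcomere, mitosis, DNA replication and oncofetal medians kept their sign under every alternative tried. With the P2.5 dKO library in place of the control, the fetal sarcomere median turned from -0.85 to 0.11 with 4 members lower, and the other matrix genes had 2 higher. There DNA replication had a median of -0.32 with 0 lower, and mitosis -0.90 with 19. With the E15.5 dKO library these medians were -0.36 and -0.85, with 15 mitosis genes lower. The erythroid median turned from -0.70 to 0.19 with a mean FPKM of at least 10, to 0.27 with status OK only and to 0.34 with transcripts of at least 1000 bases, where fewer of its genes are counted. Calcium cycling, glycolysis, collagens and other matrix genes had medians so near 0 that some settings changed their sign. The cause of changes between libraries was not tested.

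A pseudocount of 0.1 gave 465 lower genes. A pseudocount of 5 gave 294 higher and 103 lower genes, and medians of -0.31 for DNA replication (0 lower), -0.82 for mitosis (9 lower) and -1.15 for oncofetal genes, with 2 collagen genes lower and 4 other matrix genes higher. A mean FPKM of at least 10 gave 328 higher and 117 lower genes, with 0 DNA replication and 3 collagen genes lower. Rescaling to a sum of 1000000 gave 805 lower genes, medians of 0.50 for the TCA list (2 higher), 1.00 for the respiratory list, -0.72 for DNA replication (11 lower) and -1.37 for mitosis, and 4 higher genes each among adult sarcomere and other matrix genes. Adjustment for length and GC content gave the respiratory list a median of 0.90 with 32 higher. Transcripts of at least 1000 bases gave it 1.04 with 17 higher, 4 adult sarcomere genes higher and 4 fetal sarcomere genes lower. At 3-fold, 189 genes were higher and 87 lower. Higher members were then 15 fatty acid, 22 respiratory, 1 adult sarcomere, 1 TCA, 1 calcium cycling and 2 other matrix genes. Lower members were 8 oncofetal, 3 collagen, 0 mitosis and 0 DNA replication genes. No paired analysis was possible because the control comparison has 1 library per stage, and a fit that pairs the stages within each genotype, with 1 residual degree of freedom, was not run. Depth limits genes near the filter, where an FPKM of 2 on 2000 bases rests on about 178 fragments in the P2.5 control.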
